A study of Drosophila melanogaster with 6 samples.

Results

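The larval body wall of w1118 Drosophila melanogaster is described here from 3 of the 6 RNA sequencing samples of the series, chosen by their genotype label alone. The w1118 strain is a common laboratory background that lacks a working white gene, and it served as the tumour-free control of a study of muscle wasting. Larvae were raised at 25 °C and taken 7 days after egg laying. Internal organs and the anterior end were dissected away, so that each sample was a pool of cuticles, on whose number the sources used here differ, with the epidermis below the cuticle and the body wall muscles (tissue label: body wall skeletal muscles). The 3 samples, replicates 1, 2 and 3, share genotype, age and tissue. No source used here says whether they came from separate cultures, so their spread may be partly technical, and each carries its own sequencing lane label, so lane and replicate cannot be told apart. Within 1 group there is no comparison to test, and all values below are descriptions of these 3 libraries.

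The larval body wall is a small set of tissues with distinct products. Epidermal cells secrete the cuticle, an outer coat of chitin fibres and proteins, many of which bind chitin through the Rebers and Riddiford (R&R) domain, and at each moult or at pupariation the cuticle is replaced or hardened by quinones made from dopamine. Under the epidermis lie the striated muscles used for crawling, in which actin and myosin filaments are anchored at the Z-disc and fuelled by glycolysis and mitochondria. Fat body, haemocytes (blood cells), trachea, oenocytes and nerve endings adhere to this sheet and can remain after dissection.

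The table held 11621 genes, of which 7758 reached 1 CPM (a gene's counts scaled to a fixed library total of 1000000) in all 3 samples. Depth was 69920428 to 84149121 counts per sample, so counting error was small beside the spread between samples. White had 0 counts in replicate 3 and 2 and 0 counts in replicates 1 and 2, as the genotype label implies. The epidermal and muscle labels held. All 8 epidermal markers in the table, among them grh, the epidermal transcription factor grainy head, and kkv, the chitin synthase krotzkopf verkehrt, were present in every sample. The epidermal markers summed to 1578 CPM in replicate 3, against 3248 and 3176 CPM in replicates 1 and 2. Grh, at 152 CPM in replicate 3 and 191 and 141 CPM in replicates 1 and 2, varied little, but verm, serp, kkv, Cda4 and cora were below both other samples in replicate 3. The 9 muscle markers summed to 32895 CPM in replicate 3, against 66839 and 95190 CPM in replicates 1 and 2. Most markers of organs that should have been removed were low. The 23 midgut markers summed to 64.9 CPM in replicate 3, against 7.68 and 0.715 CPM in replicates 1 and 2, and the 5 salivary gland markers to 5.53 CPM in replicate 3, against 6.89 and 1.88 CPM. A wider gut list of 53 genes held 0.0526% of the counts in replicate 3, against 0.0776% and 0.0827%, mainly from Peritrophin-A and Mal-A5. Of the 3 gonad markers, vas and nos were under 1 CPM and bam had 254 CPM in replicate 3, against 297 and 103 CPM, but bam overlaps CG11854 on the other strand and reads of these genes cannot be told apart. Residual tissue was visible from the 6 fat body markers (187 CPM in replicate 3, against 30.02 and 70.16 CPM) and the 6 haemocyte markers (340 CPM in replicate 3, against 446 and 832 CPM). By CPM, without further scaling, the haemocyte list was split, with eater, nimC1 and He highest and Hml, proPO45 and proPO-A1 lowest in replicate 3. Fewer cells of a type and less RNA per cell cannot be told apart in such bulk samples.

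Counts were concentrated in few genes. The 20 most abundant genes held 24.3% of the counts in replicate 3, against 32.5% and 34.9% in replicates 1 and 2, a mean of 30.6% ± 5.58 (SD, n = 3), and the 95% Wilson interval of 24.26% to 24.28% in replicate 3, which covers counting error only, is far narrower than that spread. The first 50% of the counts came from 149 genes in replicate 3, against 82 and 61 genes in replicates 1 and 2. Replicate 3 was thus the sample with the flattest distribution, and it also had the most genes at or above 1 CPM, 8288 against 7986 and 7955.

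The 25 genes with the most counts were led by the larval cuticle proteins. Lcp1 had 42852 CPM in replicate 3 and 49951 and 38423 CPM in replicates 1 and 2, a mean of 43742 CPM with a coefficient of variation of 13.3% (n = 3). Lcp4 followed with 30698 CPM in replicate 3, against 47644 and 49324 CPM. Then came Lcp3, with 12731 CPM in replicate 3, against 28684 and 38517 CPM, and Lcp2 in 5th place, with 19310 CPM in replicate 3, against 27681 and 21463 CPM. Lcp1 to Lcp4 encode R&R proteins of the soft larval cuticle and form a cluster on chromosome arm 2R of the BDGP6 genome, and together they held 10.6% of the counts in replicate 3, against 15.4% and 14.8% in replicates 1 and 2. They are close paralogs, so the split of reads among them is uncertain. The rows for Lcp65Ab2 and Lcp65Ab1, near-identical copies on chromosome arm 3L (6146674 to 6147089 and 6149548 to 6149960), had means of 11420 and 11309 CPM and carry the same pair of symbols, and their reads cannot be assigned to a copy. Cpr49Ac, another R&R gene, was the only cuticle gene of the 25 that was highest in replicate 3, with 15867 CPM, against 4232 and 813 CPM in replicates 1 and 2, a spread larger than its mean of 6971 CPM.

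Of the 25 genes, 7 were cuticle genes and 7 muscle genes. Act57B, the main larval muscle actin, was the most abundant of the muscle genes, with 12291 CPM in replicate 3, against 24674 and 36652 CPM in replicates 1 and 2. Mlc2 (the regulatory myosin light chain), Argk (arginine kinase, which buffers ATP), up (troponin T), Prm (paramyosin), bt (projectin) and Tm1 (tropomyosin) were the others, and all 7 were highest in replicate 2 and lowest in replicate 3. The elongation factors Ef1alpha48D and Ef2b, the mitochondrial transcripts COX1 and COX3, the polyubiquitin genes Ubi-p5E and Ubi-p63E, and the glycolytic aldolase Ald completed the named classes. Ef2b varied least among these 7, at 4830 CPM in replicate 3 and 4065 and 4420 CPM in replicates 1 and 2. The remaining 4 genes, CG42500, CG13731, CG34227 and CG32249, belonged to no class. CG42500 (chromosome arm 3R, 14152211 to 14152650) was 6th of all genes, with 22383 CPM in replicate 3 and 21051 and 21257 CPM in replicates 1 and 2, a mean of 21564 ± 717 CPM (SD, n = 3).

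**Figure D1:**
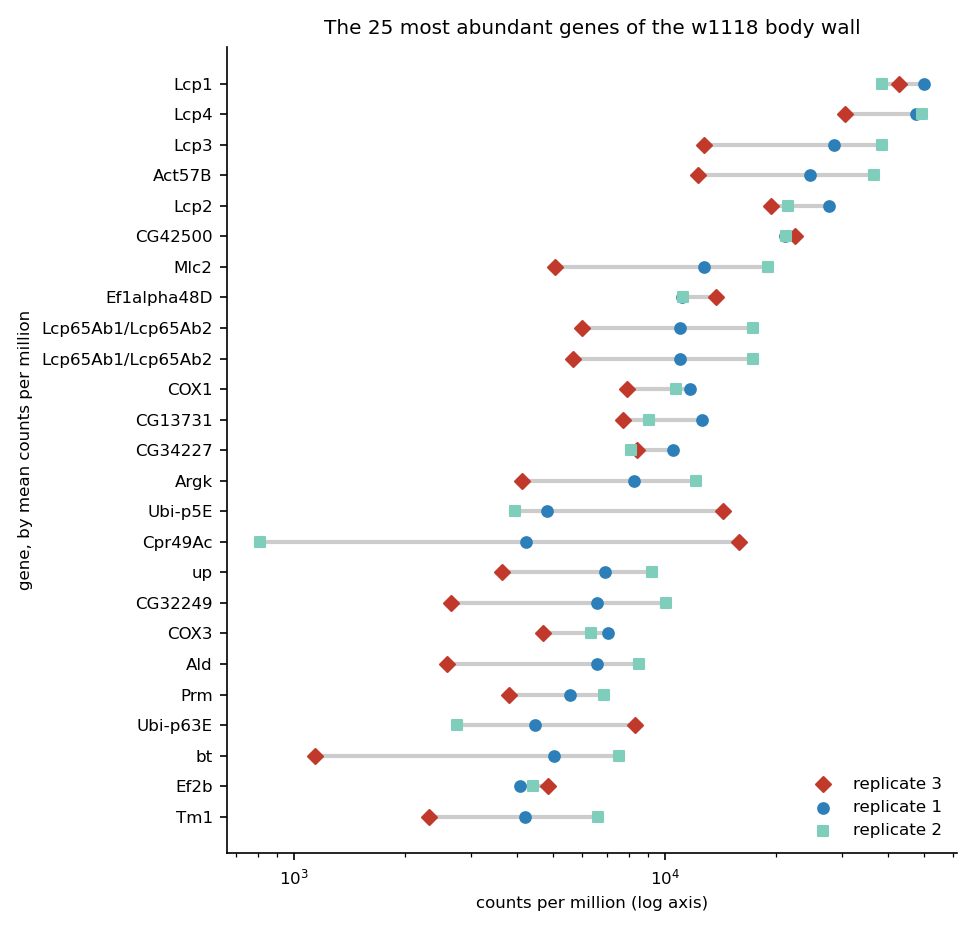
The 25 genes with the highest mean CPM, 1 per row, with CPM on a log axis and 1 point per sample (diamond, replicate 3, circle, replicate 1, square, replicate 2), joined by a grey line from lowest to highest. Larval cuticle genes head the list, and muscle genes such as Act57B and bt are lowest in replicate 3. On the log axis Cpr49Ac spans the widest range, from 813 to 15867 CPM.

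CPM counts reads, and long transcripts yield more of them. Per kilobase of merged exon, 17 of the 25 genes remained among the 25 highest. Lcp4 then stood 1st and CG42500, with 440 bases of exon, 2nd. Long scaffold transcripts of muscle ranked far lower on this scale. The titin-like gene sls, with 58996 exon bases, was 34th by CPM and 854th per kilobase, and bt, with 28019 exon bases, was 23rd and 416th, while Act57B, with 1724 exon bases, was 4th and 9th. On this scale the cuticle classes held 32.8% and the muscle classes 5.94% on average, against 19.7% and 11.7% of the raw counts.

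Gene classes were compared as shares of all counts. The cuticle classes include the tanning, pigment and apical matrix genes given below. They took 17.6% of the counts in replicate 3, against 20.9% and 20.7% in replicates 1 and 2. Within them the R&R proteins made up 14.03% of all counts in replicate 3, against 18.97% and 19.12%, from 82 genes, of which Lcp1, Lcp4 and Lcp3 alone carried 61.5% of that share in replicate 3 and 66.6% and 66.0% in replicates 1 and 2. Of the 82 R&R genes 55 passed a mean of 1 CPM. The Tweedle and Osiris families were nearly silent, and the chitin genes were a minor part. Tweedle cuticle proteins (21 genes) held 0.00753% in replicate 3, against 0.00206% and 0.00371%, and the Osiris family (15 genes), linked to cuticle secretion, held less than that in every sample. Chitin synthesis, modification and binding took 0.743% in replicate 3, against 1.03% and 0.937%, led by the chitinase Cht3, the chitin deacetylase verm and the aminosugar enzyme Gfat1.

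Muscle classes ranged more widely than the cuticle, with 6.99% of the counts in replicate 3, against 12.1% and 16.2% in replicates 1 and 2. The thin filament (actins, troponins and tropomyosins) was the largest of them, with 2.95% in replicate 3, against 5.17% and 7.24%. Thick filament and M-line genes took 1.38% in replicate 3, against 3.15% and 4.41%, and Argk, the calcium pump Ca-P60A and other calcium handling and phosphagen genes 0.616%, against 1.23% and 1.73%. The Z-disc and titin-like scaffold was the steadiest of the contractile classes, with 1.77% in replicate 3, against 2.21% and 2.47%. Its 2 leading genes, the filamin gene cher and the Z-disc gene Zasp66, were higher in replicate 3 than in the others, with cher at 5372 CPM in replicate 3, against 3885 and 2720 CPM. Filamin is also made outside muscle.

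Mitochondrial classes held 3.45% of the counts in replicate 3, against 5.39% and 5.69% in replicates 1 and 2, and the 13 genes of the mitochondrial genome alone took 2.29% of all counts in replicate 3, against 3.56% and 3.19%. COX1, subunit 1 of cytochrome c oxidase, had 7935 CPM in replicate 3, against 11724 and 10747 CPM. Nuclear-encoded genes of the respiratory chain drew fewer counts, and ATPsyn-beta, the catalytic subunit of ATP synthase, reached 726 CPM in replicate 3, against 1318 and 1968 CPM. Glycolysis and lactate genes, only 17 in the list, held 1.54% in replicate 3, against 3.11% and 4.33%, led by Ald, the glycogen phosphorylase gene GlyP and Gapdh1.

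Translation was the broad class whose share varied least, with a coefficient of variation of 6.29%. It took 10.2% of the counts in replicate 3, against 9.08% and 10.1% in replicates 1 and 2, with 6.68% in replicate 3 and 6.13% and 7.01% from the 89 cytosolic ribosomal protein genes. No ribosomal protein gene stood out. RpL5, the most abundant by CPM, was only 59th of all genes, with 2410 CPM in replicate 3 and 1916 and 2190 CPM in replicates 1 and 2, and the top 3 genes together made up 9.93% of the class in replicate 3 and 8.79% and 8.75% in replicates 1 and 2. Coefficients of variation of single genes were taken from CPM, without further scaling. Over all 8169 genes with a mean of at least 1 CPM their median was 20.1%. It was 7.58% for the ribosomal protein genes and 10.5% for the translation factors. In contrast, it was 63.1% for R&R cuticle proteins, 56.7% for thick filament genes and 68.1% for heat-shock proteins and chaperones. The low spread of the ribosomal protein genes holds for CPM only. With the TMM scaling described below, their median log2 deviation in replicate 3 was -0.31, below the lower quartile of all genes. Their coefficient of variation under that scaling was not computed.

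Among the other classes, proteasome and ubiquitin genes took 3.84% in replicate 3, against 1.98% and 1.35%. Heat-shock proteins and chaperones took 1.47%, against 0.918% and 0.629%, and cytoplasmic actin and tubulin 1.46%, against 1.08% and 0.826%. Tanning, pigment and apical matrix genes, part of the cuticle classes, took 2.81% in replicate 3, against 0.849% and 0.661%. Oenocyte markers held 0.282% in replicate 3, against 0.356% and 0.321%, mainly from CG17374 and from Cyp4g1, the hydrocarbon-forming P450 of oenocytes, which was at 1094 CPM, against 1623 and 1621 CPM. Genes in none of the 48 classes accounted for 49.7% of the counts in replicate 3, against 42.3% and 37.4%, spread over 10102 genes.

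**Figure D2:**
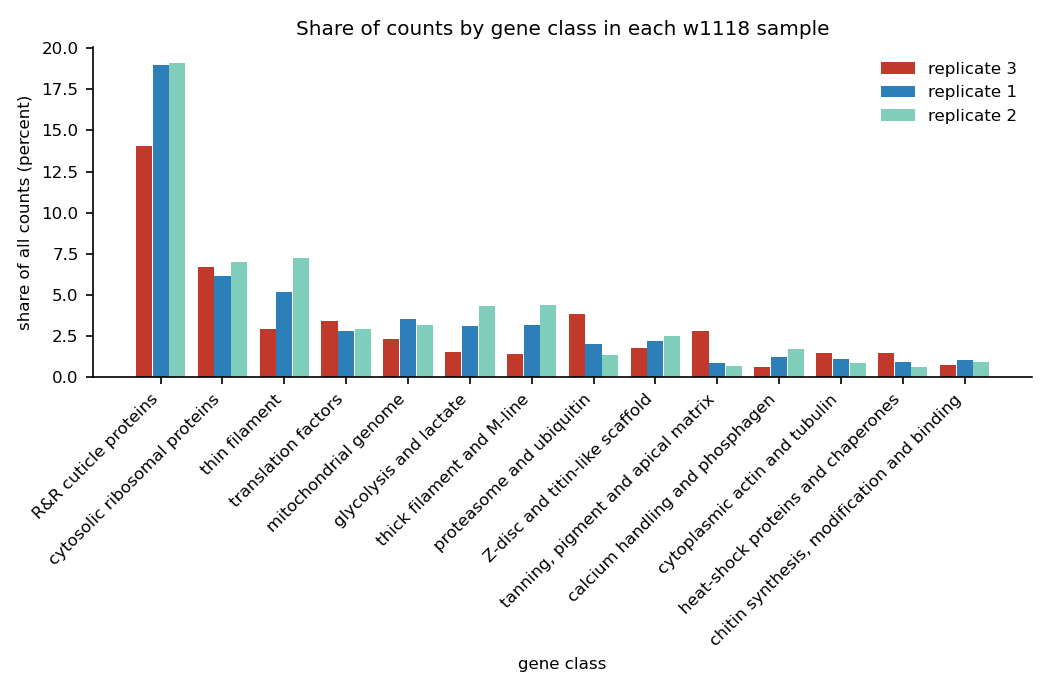
Share of all counts, in percent, of 14 gene classes in each sample (left bar, replicate 3, middle bar, replicate 1, right bar, replicate 2), with no error bars because each bar is 1 library. R&R cuticle proteins are the largest class at 14.03% to 19.12%, ribosomal proteins vary little, and muscle, mitochondrial and glycolytic classes are lowest in replicate 3, where the ubiquitin and tanning classes are highest.

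Replicate 3 stood apart from the other samples across the transcriptome. Each gene's deviation was taken as log2 CPM in 1 sample minus the mean of the other 2 samples, with TMM-scaled libraries (scaling factors that correct for composition) and a prior count of 2, over the 8169 genes with a mean of at least 1 CPM, and a deviation of at least 2-fold was counted. Replicate 3 was higher by at least 2-fold in 692 genes (8.47%) and lower in 548 genes (6.71%), together 15.2%. The balance of its calls depended on expression level. Of 2785 genes with a mean of 1 to 10 CPM, 318 were higher and 163 lower. Of 138 genes with a mean of at least 1000 CPM, 10 were higher and 45 lower. With a mean of at least 10 CPM, 374 were higher and 385 lower. Replicate 1 was higher in 101 genes (1.24%) and lower in 232 genes (2.84%), together 4.08%, and replicate 2 was higher in 457 genes (5.59%) and lower in 482 genes (5.9%), together 11.5%, counts that include replicate 3 in their reference. Between pairs of samples, 18.5% of the genes differed by at least 2-fold between replicates 3 and 2 and 13.2% between replicates 3 and 1, but 4.44% between replicates 2 and 1. The common biological coefficient of variation, edgeR's estimate of the spread between replicates, was 0.413 over the 3 samples and 0.212 without replicate 3, against 0.493 without replicate 1 and 0.409 without replicate 2. Of the genes counted, 145 were under 1 CPM in replicates 1 and 2 and passed the minimum only through replicate 3, and 115 of these are among the 692. The class counts of higher genes below include such genes.

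The direction of small deviations depended on the scaling. With libraries scaled by total counts alone, the deviations of replicate 3 moved up by 0.32 on the log2 scale, its higher genes numbered 1010 and its lower genes 369, and higher genes made up 73.2% of the calls, against 55.8% with TMM. Replicate 1 lay between the others for many genes. Among the 692 genes higher in replicate 3, 480 (69.4%) were higher in replicate 1 than in replicate 2, and among the 548 lower genes 494 (90.1%) were lower in replicate 1 than in replicate 2, while 48.7% of all genes were higher in replicate 1 than in replicate 2.

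Cuticle genes differed in both directions in replicate 3. Of the 118 cuticle genes with a mean of at least 1 CPM, 19 were higher and 42 lower in replicate 3, against 8.47% and 6.71% of all genes. The 118 include the 24 tanning, pigment and apical matrix genes described next, which gave 10 of the 19 higher genes. The R&R proteins were mostly lower, 29 of 55, with a median deviation of -1.60. Lcp9 had 189 CPM in replicate 3, against 1342 and 1528 CPM in replicates 1 and 2. Cpr47Ec had 17.1 CPM in replicate 3, against 303 and 506 CPM, and Cpr78Cc 1.14 CPM, against 34.2 and 46.5 CPM, a deviation of -5.41. Replicate 3 was far below both other samples in each of these genes. Only 6 R&R genes were higher, among them Cpr49Ac with a deviation of 2.78 and Cpr66Cb with 31.2 CPM in replicate 3, against 0.257 and 0.185 CPM. Cpr66Cb passed the minimum only through replicate 3. The chitin class had 9 lower and 1 higher of 29, including verm, with 268 CPM in replicate 3, against 1049 and 1023 CPM, and serp, the other epidermal chitin deacetylase, with 308 CPM, against 848 and 732 CPM.

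Tanning genes were the opposite. Of the 24 genes in the tanning, pigment and apical matrix list that passed the minimum, 10 were higher in replicate 3 and 2 were lower, against 8.47% and 6.71% of all genes. The 10 include e, which passed the minimum only through replicate 3, so that its call is no separate result. Ple (chromosome arm 3L, 6713356 to 6719525), tyrosine hydroxylase, which makes the dopamine precursor DOPA, had 11133 CPM in replicate 3, against 3.95 and 7.02 CPM in replicates 1 and 2. Ddc, which converts DOPA to dopamine, had 2487 CPM in replicate 3, against 553 and 116 CPM. The gene e (ebony), which joins beta-alanine to dopamine for tan cuticle, had 201308 counts in replicate 3, against 4 and 6 counts in replicates 1 and 2. The gene b (black), which makes beta-alanine, had 928 CPM in replicate 3, against 56.5 and 16.9 CPM. Pu, GTP cyclohydrolase, which supplies the cofactor of ple, had 1594 CPM, against 293 and 140 CPM, and yellow-c 3608 CPM, against 103 and 42.4 CPM. Replicate 3 was far above both other samples in all 6, and replicate 1 was above replicate 2 in Ddc, b, Pu and yellow-c but not in ple or e. The giant apical matrix gene dp (dumpy) was lower, with 372 CPM in replicate 3, against 1559 and 1449 CPM.

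**Figure D3:**
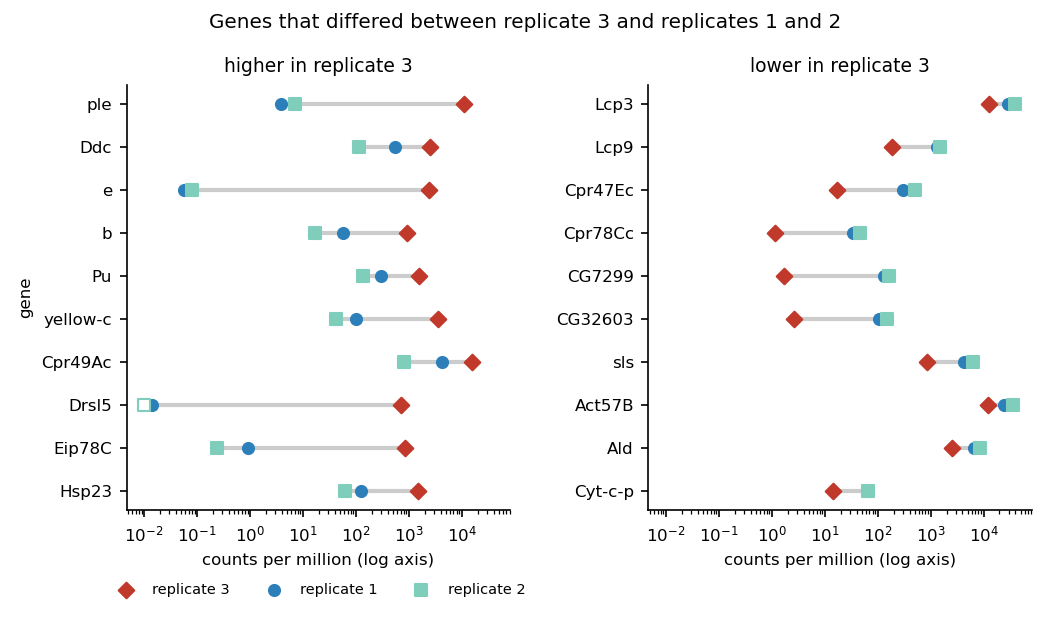
CPM on a log axis in each sample (diamond, replicate 3, circle, replicate 1, square, replicate 2) for 10 genes higher and 10 genes lower in replicate 3, drawn as named examples. An open symbol at the left edge marks a sample with 0 counts (Drsl5, replicate 2). The tanning genes ple and e differ by more than 3 orders of magnitude between replicate 3 and the others, whereas Act57B and Ald differ by less than 4-fold.

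Contractile genes made up most of the muscle genes that were lower in replicate 3. Of the 76 muscle genes counted, 28 were lower and 6 higher, against 6.71% and 8.47% of all genes. With TMM 21 of them were highest in replicate 3, against 38.6% of all genes. The median deviation of the 76 was -0.46 with TMM and -0.15 with total counts. All 7 thick filament and M-line genes were lower, with a median deviation of -1.94, as were 10 of 17 thin filament genes and 5 of 12 Z-disc and scaffold genes. Sls had 862 CPM in replicate 3, against 4224 and 6250 CPM in replicates 1 and 2, and Msp-300, a giant protein that positions muscle nuclei, 327 CPM, against 1536 and 2383 CPM. Replicate 2 was highest and replicate 3 lowest in both. The 4 sarcomere genes with more than 16000 exon bases, Msp-300, sls, bt and Strn-Mlck, deviated by -2.43 to -2.89, and Unc-89 (obscurin), with 13261 exon bases, by -2.86, whereas the short transcripts of Act57B, Mlc2 and up deviated by -1.61, -1.94 and -1.45. TpnC47D, a troponin C with 791 exon bases, deviated by -2.77 and cher, with 9428, by 0.41. The median was -1.24 for the 11 sarcomere genes with 1000 to 2000 exon bases, which ranged from -2.28 to 0.12. It was -0.79 for the 6 with 8000 to 16000 exon bases, which ranged from -2.86 to 0.50. Over all genes the median deviation of replicate 3 was -0.13 below 1000 exon bases, 0.05 between 4000 and 8000 and -0.59 above 16000 (43 genes), and the part of transcript length or RNA quality in these values was not tested. The 6 higher muscle genes were all myogenic regulators, of which Mef2, the main muscle transcription factor, had 324 CPM in replicate 3, against 122 and 108 CPM.

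**Figure D4:**
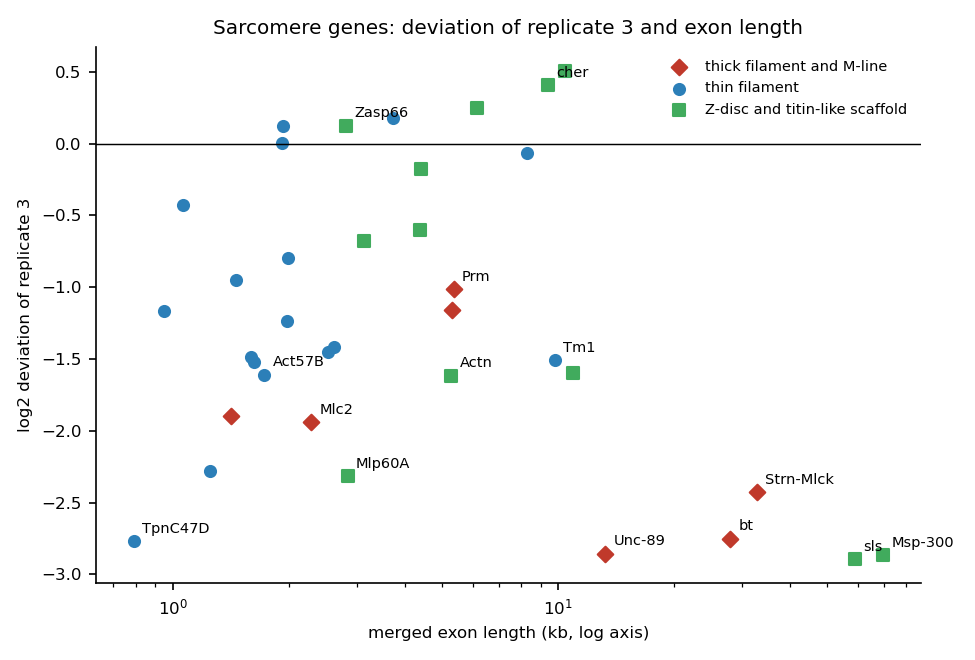
Log2 deviation of replicate 3 from the mean of replicates 1 and 2 for each sarcomere gene (vertical axis) against its merged exon length in kb (horizontal log axis), with diamonds for the thick filament and M-line, circles for the thin filament and squares for the Z-disc and scaffold. The longest genes, sls and Msp-300, lie near -2.9, short genes spread from above 0 to -2.77.

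No mitochondrial or glycolytic gene was at least 2-fold higher in replicate 3, and many were lower. Of the 202 mitochondrial genes counted, 75 were lower, and of 16 glycolysis genes 15 were lower, against 6.71% of all genes. With total counts alone 42 and 13 were lower, beside 369 of all 8169 genes. The shift was similar across the nuclear respiratory chain. The median deviation was -1.06 for complex I, -1.30 for complexes II to IV with cytochrome c, -1.39 for ATP synthase and -1.39 for the citric acid cycle. All 34 complex I genes and all 14 ATP synthase genes kept the order replicate 2 above 1 above 3 under both TMM and total-count scaling. Of all 8169 genes, 2382 had this order with TMM and 1056 with total counts. Cyt-c-p, somatic cytochrome c, had 14.5 CPM in replicate 3, against 61.6 and 66.0 CPM in replicates 1 and 2. The citrate synthase gene kdn had 101 CPM in replicate 3, against 375 and 627 CPM, and ImpL3, lactate dehydrogenase, 502 CPM, against 1501 and 2185 CPM. All 13 mitochondrial-genome transcripts were lowest in replicate 3 with TMM, against 41.1% of all genes. Of the 13, 7 were lower by at least 2-fold, against 2 with total counts. The order replicate 2 above 1 above 3 held for 4 of the 13 with TMM and 0 with total counts. The 74 mitochondrial ribosomal protein genes were also different, with 0 called in either direction and a median deviation of -0.20 with TMM that turned to 0.12 with total counts.

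Translation genes had 0 of 160 called in either direction in replicate 3, against 8.47% and 6.71% of all genes. Their median deviation was -0.24 with TMM and 0.08 with total counts, so no direction can be given. Of the 85 ribosomal protein genes counted, 76 kept the order replicate 2 above 1 above 3 with TMM, against 29.2% of all genes. With total counts 6 of the 85 did, beside 1056 of all 8169 genes. The median deviation of the 85 was -0.31 with TMM and 0.004 with total counts, so their low spread by CPM depends on the scaling. Septate junction genes, which seal the epidermis, and the vacuolar ATPase had 0 of 18 and 0 of 19 called.

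Many heat-shock and chaperone genes and some ecdysone-response genes were at least 2-fold higher in replicate 3, while proteasome and ubiquitin genes deviated by less. All 38 proteasome and ubiquitin genes kept the order replicate 3 above 1 above 2 under both scalings. Of all 8169 genes, 2126 had this order with TMM and 4324 with total counts. The median deviation of the 38 was 0.58 with TMM, but 2 of them passed 2-fold, against 8.47% of all genes. Ubi-p5E had 14362 CPM in replicate 3, against 4800 and 3953 CPM in replicates 1 and 2. Of 22 heat-shock proteins and chaperones 14 were higher and 0 lower, against 8.47% and 6.71% of all genes. The small heat-shock gene Hsp23 had 1510 CPM in replicate 3, against 124 and 63.1 CPM, and Hsp26 550 CPM, against 55.6 and 32.8 CPM, but the constitutive Hsc70-4 3296 CPM, against 2577 and 2122 CPM. The near-identical Hsp70 copies, whose reads cannot be assigned to a copy, make up 6 of the 14, and Hsp22 and Hsp67Bb, also among them, overlap each other. In the ecdysone response list, genes that the moulting hormone switches on, 9 of 22 were higher and 1 was lower, against 8.47% and 6.71% of all genes. The 9 include Eip78C, which passed the minimum only through replicate 3. Eip78C, an ecdysone-induced nuclear receptor, had 846 CPM in replicate 3, against 0.930 and 0.238 CPM, Hr46, another early-late receptor, 26.6 CPM, against 1.17 and 0.146 CPM, and ImpE2 104 CPM, against 4.18 and 3.84 CPM. By contrast br (broad), a regulator of the larval-to-pupal switch, was present in all samples at 1212 CPM in replicate 3 and 805 and 477 CPM in replicates 1 and 2.

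**Figure D5:**
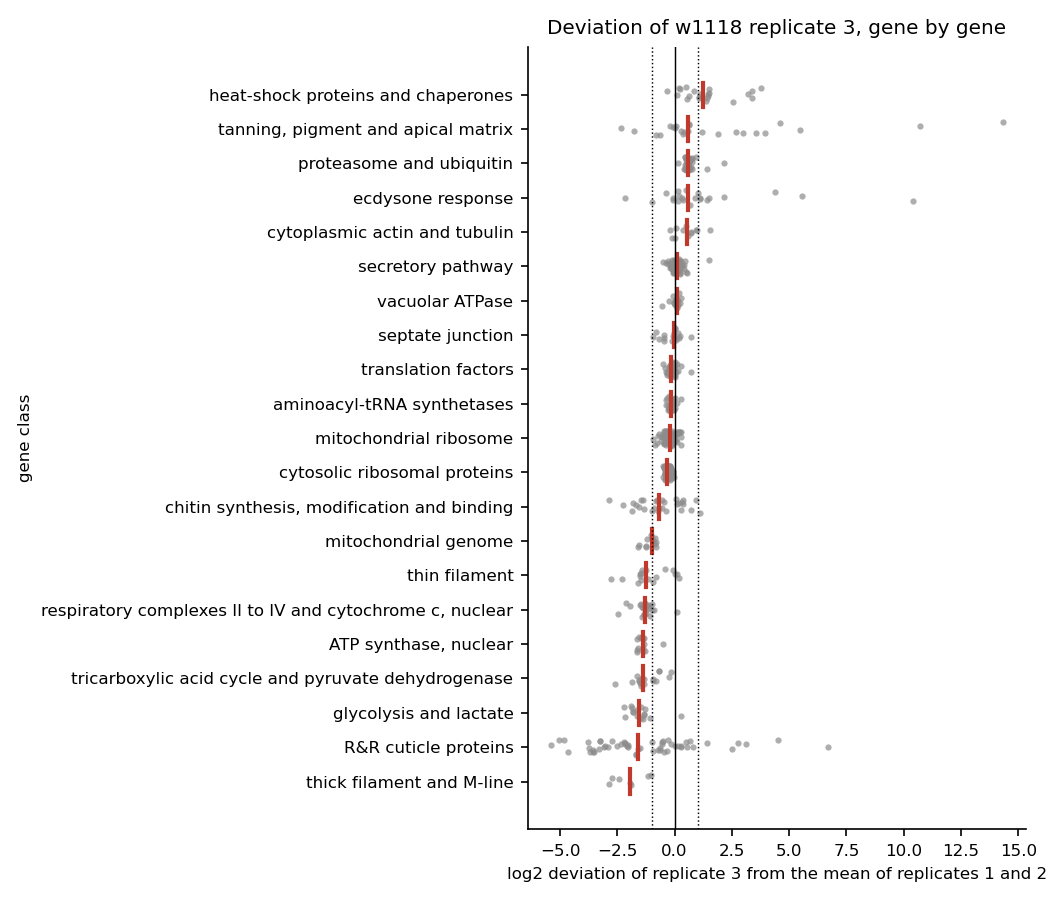
Log2 deviation of replicate 3 from the mean of replicates 1 and 2 (horizontal axis) for every gene with a mean of at least 1 CPM in 21 classes, 1 grey point per gene and a red line at the class median, with dotted lines at 2-fold. Ribosomal and translation classes are narrow, with medians from -0.31 (cytosolic ribosomal proteins, all below 0) to -0.15 (translation factors). Glycolysis, ATP synthase and thick filament genes lie farther to the left, and the tanning class has a tail past 10 on the right.

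The largest single deviations included genes that replicates 1 and 2 barely expressed. CG7906 and CG7924, neighbours on chromosome arm 3L (14236635 to 14238272 and 14233469 to 14234609), had 3430 and 2951 CPM in replicate 3, while replicates 1 and 2 had 4 and 0 counts of CG7906 and 62 and 33 counts of CG7924. Drsl5, a peptide of the Drosomycin family of antifungal genes, had 60367 counts in replicate 3, against 1 and 0 counts, a ratio of 83632 with a 95% exact counting interval of 15010 to 3.30e+06. CG34193 had 90609 counts in replicate 3, against 2 and 0 counts, and CG9822 and CG2070 had 319 and 313 CPM, each with under 0.2 CPM in replicates 1 and 2. In the other direction, CG7299 had 1.70 CPM in replicate 3, against 133 and 167 CPM, and CG32603 2.64 CPM, against 108 and 150 CPM. CG10953, CG15597 and CG8534 were under 1 CPM in replicate 3 and between 13.8 and 60.4 CPM in replicates 1 and 2. In all, 86 of the 8169 genes were at least 16-fold higher and 25 at least 16-fold lower in replicate 3. CG7906, CG7924, Drsl5, CG34193, CG9822 and CG2070 passed the minimum only through replicate 3, so their calls are no separate result. How many of the 86 passed in this way was not counted, so the 86 and 25 are not a like comparison. The interval of Drsl5 covers counting error only, not its choice as an extreme.

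By share of counts, replicate 3 lay outside the range of replicates 1 and 2 in 44 of the 48 classes, and in 32 its distance to the nearer sample exceeded the gap between those 2 samples. The same counts were not made for replicates 1 and 2, and shares of 1 total are not independent of each other. Set against the mean of replicates 1 and 2, the points of share lower in replicate 3 were greatest for the muscle classes (-7.13 points) and the R&R proteins (-5.02 points), followed by glycolysis (-2.18 points) and mitochondria (-2.09 points). Proteasome and ubiquitin genes were higher by 2.17 points, tanning genes by 2.06 points and the unclassified genes by 9.87 points. Among single genes the differences were -2.09 points for Lcp3, -1.84 for Act57B, 1.33 for Cpr49Ac, 1.11 for ple and 0.999 for Ubi-p5E. Markers of other tissues also differed, in both directions. Of the 6 fat body markers 5 were highest in replicate 3, among them the storage protein gene Fbp1 with 66.2 CPM, against 4.83 and 9.20 CPM in replicates 1 and 2, and Lsp2 with 45.6 CPM, against 8.35 and 16.5 CPM, while Lsp1alpha lay between the others. The wider fat body list of 19 genes, which includes Adh and CG3523, both lowest in replicate 3, held 0.0448% of the counts in replicate 3, against 0.0444% and 0.0503%. The crystal cell prophenoloxidase gene proPO45 had 62.9 CPM in replicate 3, against 143 and 264 CPM. Eater, a phagocytosis receptor of other blood cells, had 123 CPM, against 77.5 and 120 CPM. With TMM eater deviated by 0.04 in replicate 3 and by 0.56 in replicate 2. The haemocyte marker Hml had 65.6 CPM in replicate 3, against 81.1 and 167 CPM, so no single direction held for the blood cell markers. The part of these tissues in the deviations was not tested.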

How the data were processed

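Raw counts per gene from 3 w1118 libraries were used, as deposited by the authors without normalization. Per the submitters' processing notes, reads on the BDGP6 build passed through HTSeq, TopHat with Bowtie, bcl2fastq, FastQC and DESeq2, listed there with no order. Versions and settings are not given in the sources used here. TruSeq v2 libraries are unstranded, and genes that overlap on opposite strands share reads that cannot be told apart. The authors' own fold changes and p-values, in further columns of the table, were not used, nor were 9 other columns of per-sample values.

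Counts were divided by library totals for CPM and by merged exon length (Ensembl BDGP6, release 115, 11567 genes matched, 386 of them by symbol) for counts per kilobase. TMM factors (0.882 to 1.16), log2 CPM (prior count 2) and the common dispersion came from edgeR 4.0.16 in R 4.3.3, and the remainder from Python 3.11.15 with pandas 2.3.3, numpy 2.4.6, scipy 1.17.1 and matplotlib 3.10.9. Deviations were computed for genes with a mean of at least 1 CPM. With 1 group no p-value was computed. A library total of 69920428 to 84149121 counts makes 3 counts, the floor, 0.0357 to 0.0429 CPM, and intervals and floors cover counting error only. The computation was tested on simulated data.

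Genes were assigned to 48 lists. The members and lists were chosen with earlier results of these data known, and the septate junction, vacuolar ATPase, secretory pathway, P450, UDP-glycosyltransferase, serpin, chemosensory and histone lists were added after the data were seen. Named genes were the 25 of highest mean CPM, the 3 most abundant of each class, the 2 with the largest deviation of replicate 3 in each class and the 8 largest deviations in each direction over all genes (mean of at least 10 CPM for deviations). Others were chosen after their values were seen. Genes outside the table were not analysed here. Alternatives were length scaling, other scaling factors, filters, thresholds and prior counts, other denominators, and leaving out each replicate.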

Additional observations from a re-analysis of the deposited data

How the results depend on the processing

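Among the values of 20 summary results under the alternatives, 114 stayed close to the reported ones and 42 moved, with no change of sign in a called value. Per kilobase of exon, the 20 most abundant genes held 48.6% of the total, 23 genes held 50% of it (101 by mean CPM), and the mean share was 32.8% for cuticle, 5.94% for muscle and 12.2% for translation. Without the 20 most abundant genes, cuticle took 4.52% and translation 12.4%, and without the mitochondrial genome mitochondrial genes took 1.89%. With no filter on low counts, the genes at least 2-fold higher and lower numbered 1429 and 879 in replicate 3, 467 and 731 in replicate 1, and 855 and 1034 in replicate 2. With a mean of at least 10 CPM there were 374 higher and 385 lower genes in replicate 3, 56 higher and 101 lower in replicate 1, and 308 higher and 292 lower in replicate 2. At 1.5-fold the higher and lower genes numbered 1149 and 1089 in replicate 3, 282 and 550 in replicate 1, and 988 and 921 in replicate 2, and at 4-fold 283 and 149, 20 and 68, and 77 and 172. With total counts alone, replicate 2 had 259 higher genes, and the median deviation of replicate 3 was -0.15 for muscle and 0.0817 for translation genes, with -0.46 and -0.24 under TMM. Fewer genes are eligible under a stricter filter, and fewer deviations of the same genes pass a higher threshold. The cause of the other changes was not tested. Leaving out 1 replicate at a time, the higher and lower genes ranged over 648 to 784 and 431 to 725 in replicate 3, 219 to 431 and 144 to 648 in replicate 1, and 144 to 725 and 219 to 784 in replicate 2. The common biological coefficient of variation then ranged over 0.212 (without replicate 3) to 0.493 (without replicate 1), and the genes holding 50% of the mean CPM over 71 to 121. Of 968 values for 121 single genes 956 stayed close. No paired analysis was possible because only 1 group was analysed. Depth limits only genes near the floor of 3 counts.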

Other observations

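Imaginal disc markers other than hth were low in these libraries. Of the 10 disc markers with a mean of at least 1 CPM, 7 were higher and 0 lower in replicate 3, against 8.47% and 6.71% of all genes. Their median deviation was 1.32, and 9 were highest in replicate 3 with TMM, against 38.6% of all genes. The posterior selector gene en had 7.44 CPM in replicate 3, against 2.39 and 1.99 CPM in replicates 1 and 2, and wg, the Wnt ligand wingless, 5.22 CPM, against 1.96 and 1.19 CPM, whereas dpp had 15.2 CPM in replicate 3, against 16.5 and 13.96 CPM. Of 44 cytochrome P450 genes with a mean of at least 1 CPM 16 were lower and 3 higher in replicate 3, against 6.71% and 8.47% of all genes. Cyp9c1 had 21.2 CPM in replicate 3, against 78.5 and 124 CPM, but Cyp312a1 had 164 CPM, against 20.6 and 12.4 CPM.

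Among serpins, which inhibit serine proteases, 3 of 14 were higher and 1 was lower in replicate 3, against 8.47% and 6.71% of all genes. The median deviation was -0.34, and 10 of the 14 were lowest in replicate 3, against 41.1% of all genes. Spn100A had 169 CPM in replicate 3, against 3.25 and 1.62 CPM. The glycosyltransferase gene CG10178 had 444 CPM in replicate 3, against 8.61 and 12.3 CPM. The ferritin subunit genes Fer1HCH and Fer2LCH were highest in replicate 3, Fer1HCH with 543 CPM, against 233 and 184 CPM, and Fer2LCH with 494 CPM, against 295 and 243 CPM. They overlap on opposite strands, so their reads cannot be told apart. Most of their list of ferritin and antioxidant enzymes went the other way. Of its 32 genes 25 were lowest in replicate 3, against 41.1% of all genes, with 7 lower and 1 higher by 2-fold. Of 6 tendon markers 1 was higher and 1 lower by 2-fold. The gene slow, which acts at the muscle to tendon attachment, was the higher one, with 101 CPM in replicate 3, against 3.86 and 1.59 CPM, and the cytoskeletal linker gene shot the lower one, with 436 CPM, against 1027 and 896 CPM.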
